A study of Homo sapiens with 9 samples.

Results

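The FBXO genes encode the F-box proteins that carry neither the leucine-rich repeats of the FBXL branch nor the WD40 repeats of the FBXW branch. All target genes whose symbol began with FBXO and a digit were taken, except FBXO5 and FBXO43, which inhibit the anaphase-promoting complex. This rule used names alone and gave 35 of the 1117 target genes of a pooled sgRNA screen, with 10 guides per gene, or 350 of 11170 guides. Of the 35 symbols, 34 were current in RefSeq, and FBXO18 was an older symbol of FBH1.

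F-box proteins are the exchangeable substrate receptors of SCF ubiquitin ligases. The F-box binds SKP1, which docks on the scaffold CUL1, while the rest of the protein selects the substrate. RBX1 brings in an E2 enzyme, NEDD8 attached to CUL1 activates the ligase, and CAND1 helps to exchange one F-box protein for another. Each FBXO protein therefore directs a different substrate to the same machinery, and some FBXO proteins also work outside SCF complexes.

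The screen used U251, an established human glioma line, in which cells that stably carried sgRNAs were exposed to temozolomide for 72 hours. Temozolomide methylates DNA and is the standard drug for glioblastoma. The 3 groups were cells at 0, 200 and 1500 µM in the sample titles, and each had 3 libraries that the titles number 1 to 3. Since the treatment protocol writes these figures in nM, the unit is not settled, and the titles' doses serve as group names. All groups shared the same line and guide pool. The labels named neither the nuclease and vector nor the time between infection and treatment, and nothing said whether the numbered libraries came from separate cultures, so that p-values measure a spread between libraries that may be technical. Guide counts measure how many cells carry a guide. They show neither whether the target was cut nor the markers of the line, and no library from before growth was analysed here. The table held guide names without their sequences.

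Total counts per library were 1852340 to 2790563. A level is given below in CPM, counts scaled to a common library size with edgeR's TMM factors. A floor of 3 counts, an approximate upper bound for a count of 0, was 1.08 to 1.62 CPM without that scaling. Floors cover counting error only. Of the 350 FBXO guides, 343 reached 10 counts in 3 or more of the 9 libraries and were tested, among 10337 guides in all. All 10 guides were tested for 28 genes and 9 guides for the other 7. FBXO30.6, FBXO32.8 and FBXO42.10 had 0 counts in every library, and FBXO36.10, FBXO41.4, FBXO47.1 and FBXO8.1 reached no more than 41 counts in any. A further part of the family was thin, as 89 FBXO guides had 0 counts in at least 1 library.

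Without drug, guides against FBXO genes were more abundant than the typical guide of the pool. The median FBXO guide stood at 62.5, 51.1 and 58.8 CPM in replicates 1, 2 and 3 at 0 µM, and the median guide of all other genes at 39.0, 42.7 and 42.8 CPM. The means of these medians were 57.5 ± 5.77 CPM and 41.5 ± 2.18 CPM (SD, n = 3). The FBXO median was the higher of the pair in 9 of 9 libraries, with 57.9 ± 3.64 against 42.5 ± 1.72 CPM at 200 µM and 56.6 ± 3.17 against 43.9 ± 1.09 CPM at 1500 µM. Guides under 10 counts made up 7.71% to 14.6% of FBXO guides and 14.0% to 20.5% of all guides, depending on the library. These levels carry no test, since genes are not replicates, and how the pool was composed at the start cannot be told apart from loss during growth.

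**Figure D1:**
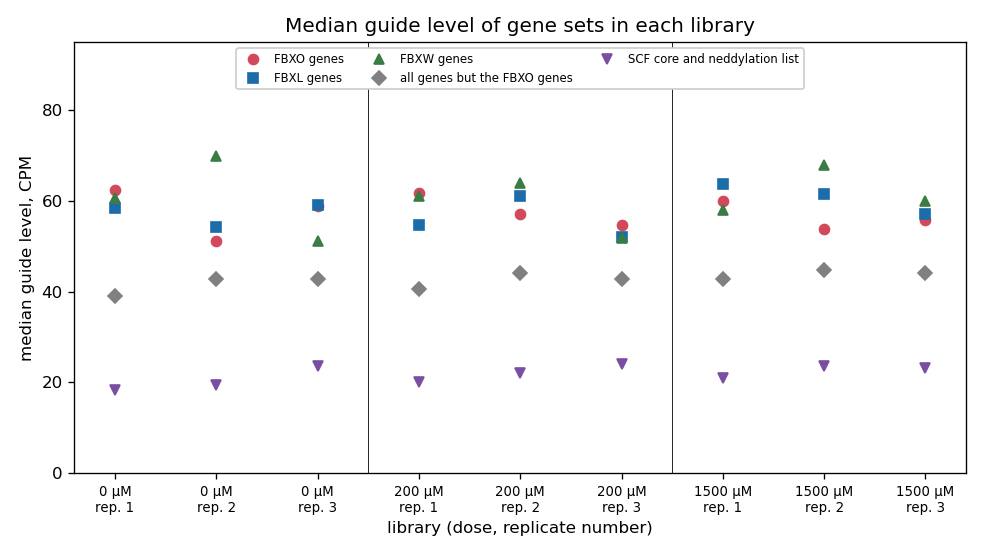
Median guide level in CPM (vertical axis) in each of the 9 libraries (horizontal axis), for the guides of the FBXO genes, of 2 other F-box branches, of all other genes and of the SCF machinery. The FBXO points lie between 51.1 and 62.5 CPM, above the grey points of all other genes in every library, and the SCF machinery lies lowest.

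The other F-box branches stood at about the same level as the FBXO genes. At 0 µM the median guide was at 57.3 ± 2.62 CPM for the 18 FBXL genes and at 60.6 ± 9.35 CPM for the 9 FBXW genes (SD, n = 3). The shared machinery that F-box proteins depend on had a lower median guide, at 20.4 ± 2.81 CPM over the 20 measured genes of a list of 34 SCF core and neddylation genes. Of the 20, 11 lay within the range of the FBXO genes, among them the E2 enzymes UBE2D3 and UBE2D1 at 77.7 and 60.0 CPM, the exchange factor CAND1 at 29.4 CPM and SKP1, the direct partner of the F-box, at 25.4 CPM. The other 9 lay below it. Median guides of NEDD8, the activating modifier, and of RBX1, the RING subunit, stood at 1.55 and 2.33 CPM. Those of CUL1, the scaffold, of UBE2M, its NEDD8-conjugating enzyme, and of NAE1 and UBA3, the subunits of the NEDD8-activating enzyme, stood at 4.73, 4.99, 5.35 and 7.33 CPM. No FBXO gene was as scarce as these 6. Filtering touched the machinery more, since 84.5% of its guides were tested against 98% of the FBXO guides.

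Among the FBXO genes, the level of a gene's median guide spanned 24.3 to 119 CPM at 0 µM, around a median of 61.3 CPM, and 26 of 35 lay above the median gene of the table, at 51.7 CPM. The lowest was FBXO42, a receptor reported to bind p53, at 26.5, 9.60 and 36.9 CPM in replicates 1, 2 and 3. Next came FBXO17, of the glycoprotein-binding group, at 30.5, 14.9 and 31.3 CPM, and FBXO36 at 42.3, 25.7 and 21.2 CPM. FBXO42 and FBXO17 were lowest in replicate 2 and FBXO36 in replicate 3, and their means of 24.3 ± 13.8, 25.5 ± 9.23 and 29.7 ± 11.2 CPM did not differ beyond their SD (n = 3). At the upper end stood FBXO48 with 146, 101 and 109 CPM, and FBXO24, known from sperm development, with 136, 128 and 92.0 CPM. FBXO30, a muscle atrophy gene also called MUSA1, had 58.5, 167 and 74.1 CPM, so that its rank rested on replicate 2. The means of these 3 genes, 119 ± 24.1, 119 ± 23.3 and 99.7 ± 58.5 CPM, were likewise within their spread of each other. The middle of the order cannot be resolved with 3 libraries, since the libraries of most genes overlapped those of their neighbours.

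**Figure D2:**
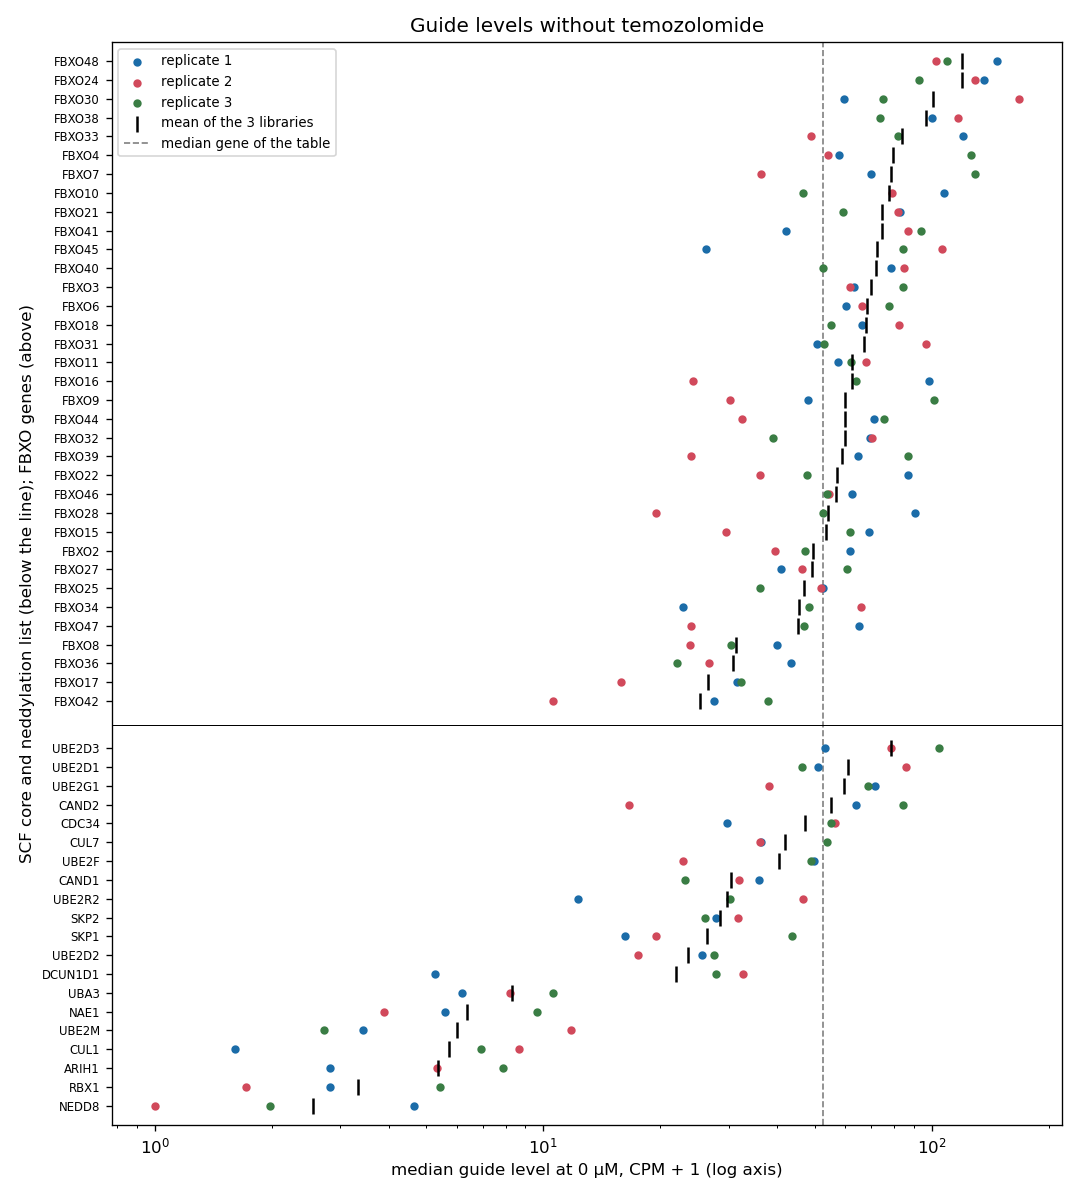
Level of each gene's median guide at 0 µM in CPM + 1 (horizontal log axis) for the 35 FBXO genes above the line and the 20 SCF core and neddylation genes below it. Coloured points are the 3 libraries, black ticks their mean and the dashed line the median gene of the table; FBXO genes run from 24.3 CPM for FBXO42 to 119 CPM for FBXO48, while NEDD8 and RBX1 stand at 1.55 and 2.33 CPM.

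By role, the genes whose proteins bind N-glycans on misfolded glycoproteins (FBXO2, FBXO6, FBXO17, FBXO27 and FBXO44) had a median guide at 45.2 ± 4.87 CPM. Those listed for DNA damage, p53 or cell cycle substrates stood at 61.6 ± 4.28 CPM. The list is loose, as the substrates named below for FBXO10 and FBXO38 are BCL2 and PD-1. Its 10 genes were FBXO4, FBXO6, FBXO10, FBXO11, FBXO18, FBXO22, FBXO31, FBXO38, FBXO42 and FBXO46. The 8 genes first studied in muscle or neurons (FBXO2, FBXO7, FBXO25, FBXO30, FBXO32, FBXO40, FBXO41 and FBXO45) stood at 63.8 ± 6.42 CPM (SD, n = 3). FBXO2 and FBXO6 belong to 2 of these lists each.

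The composition of the FBXO guides differed more between replicate numbers than between doses. Over the 343 tested FBXO guides, log2(CPM + 1) correlated at 0.81 to 0.89 between libraries of the same number at different doses, and at 0.38 to 0.46 between libraries of the same dose with different numbers. These are correlations across guides, which are not independent replicates and share library depth, so they carry no p. The median FBXO guide ranged over 2.37 log2 units between the 3 libraries at 0 µM, and the median guide of the whole table over 2.45.

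Single guides show how far this went. FBXO2.1, the most abundant guide of FBXO2, a neuron-rich receptor for high-mannose glycans, had 1979, 2.40 and 10.3 CPM in replicates 1, 2 and 3 at 0 µM. The same guide had 1392, 5.18 and 44.4 CPM at 200 µM and 1422, 7.16 and 49.9 CPM at 1500 µM, so that it was high in replicate 1 at every dose and made up 46.3% of its gene's level over the 9 libraries. FBXO32.4 targets FBXO32, the muscle atrophy ligase atrogin-1, and was high in replicate 2, with 96.3, 2467 and 386 CPM at 0 µM, 62.3, 829 and 182 CPM at 200 µM and 132, 691 and 212 CPM at 1500 µM. It made up 40.9% of FBXO32's level. FBXO3.1, FBXO47.9 and FBXO18.2, the other guides among the 5 most abundant, were more even. FBXO18.2, for example, targets the DNA helicase FBH1. It had 665, 377 and 251 CPM at 0 µM, 565, 369 and 168 CPM at 200 µM and 532, 250.1 and 156 CPM at 1500 µM, and FBXO3.1 lay between 251 and 581 CPM and FBXO47.9 between 189 and 608 CPM in the 9 libraries.

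The comparison of 1500 with 0 µM asked which FBXO targets changed the share of cells that remained under the high dose. No FBXO guide and no FBXO gene passed edgeR's quasi-likelihood test at an adjusted p of 0.05. Over the whole table that test called 0 of 10337 guides and 0 of 1117 genes. At an unadjusted p of 0.05 edgeR also called 0 of 343 FBXO guides, where it called 0.203% of all guides, and 0 of 35 FBXO genes on counts summed over their guides, where it called 0.269% of all genes. Each gene was summarised by the log2 fold change of its median guide. The median of these values was -0.08 over the FBXO genes and -0.08 over all genes as well. The FBXO genes ran from -0.53 for FBXO16 to 0.21 for FBXO22. Of the 35, 7 lay above 0, or 20% against 35% of all genes, and 17 above the median of all genes. With the replicate number as a block, the medians became -0.023 for the FBXO genes and -0.022 for all genes, and without replicate 3 at 0 µM the FBXO median was -0.13. With the block 16 of 35 lay above 0, or 45.7% against 47.2% of all genes. The sign of the median guide turned with it for 15 of 35 FBXO genes, or 42.9%, against 25.1% of all genes. Rank aggregation of the guide p-values called no FBXO gene in either direction, here or in the other comparisons. Over all genes it called 0.0896% as higher and none as lower at 1500 against 0 µM.

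With this block, which compares libraries of the same number, edgeR's unadjusted p was under 0.05 for 7 of 343 FBXO guides, or 2.04%, against 2.61% of all guides. Of the 7, 1 was higher and 6 were lower, against 0.832% and 1.78% of all guides. The same fit gave such a p for 2 of 35 FBXO genes, or 5.71%, against 6.62% of all genes. The FBXO shares were thus near the background. The 2 genes were FBXO16 and FBXO32, and both were lower at 1500 µM, as 3.76% of all genes were.

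FBXO16, a receptor reported to act on beta-catenin, had a summed level of 1335, 474 and 539 CPM in replicates 1, 2 and 3 at 0 µM and of 818, 391 and 493 CPM at 1500 µM. It was lower in 3 of 3 numbers, although the groups overlapped, and 7 of its 10 guides were lower. The edgeR log2 fold change was -0.47 ± 0.48 (SE, adjusted p = 1.00), and -0.37 ± 0.17 with the block (adjusted p = 0.74). Without replicate 1 at 0 µM, its highest library, the fold change became 0.17. All fits that left out 1 library had no block and kept its partner of the same number. Differences between replicate numbers therefore enter them.

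FBXO32 had 728, 3379 and 1085 CPM at 0 µM and 605, 1896 and 895 CPM at 1500 µM. It too was lower in each number while the groups overlapped, at -0.61 ± 0.64 (SE, edgeR adjusted p = 1.00) and -0.46 ± 0.17 with the block (adjusted p = 0.61). Fits without the block gave -0.14 ± 0.42 without FBXO32.4, and 0.30 without replicate 2 at 0 µM. The latter fit kept replicate 2 at 1500 µM, the highest library of that dose.

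Among the glycoprotein-binding genes, the median guide log2 fold change lay between -0.11 and -0.06 in all 5, around a median of -0.10. No gene of the 5 was above 0, where 65% of all genes lay below 0 around a median of -0.08. With the block FBXO2 was above 0, at 0.14. Guides of FBXO44 and FBXO17 with few counts were the lowest of this group. FBXO44.5 had 11, 22 and 37 counts at 0 µM and 0, 3 and 0 counts at 1500 µM, and 0, 0 and 19 counts at 200 µM. FBXO17.7 had 18.3, 13.0 and 29.0 CPM at 0 µM and 6.10, 5.25 and 1.26 CPM at 1500 µM. These 2 guides were the only tested FBXO guides whose log2(CPM + 1) was lower by more than 1 in all 3 numbers, a pattern that 0.522% of all tested guides had. FBXO17.7 stood at -2.26 ± 1.36 (SE, edgeR adjusted p = 1.00), and neither guide passed. FBXO2.4 had 75.6, 496 and 79.7 CPM at 0 µM and 60.7, 84.9 and 73.0 CPM at 1500 µM, so that its log2 fold change of -1.59 ± 0.90 came from replicate 2.

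Of the 10 genes listed for DNA damage, p53 or cell cycle substrates, 3 lay above 0 and 7 below, with a median of -0.09, where 65% of all genes lay below. They ranged from -0.32 for FBXO38 to 0.21 for FBXO22, a ligase of the histone demethylase KDM4A. With the block 5 lay above 0 and the median turned to 0.037. FBXO42 had 562, 361 and 433 CPM at 0 µM and 340.0, 360.4 and 387 CPM at 1500 µM. Replicate 2 barely moved, and the log2 fold change of -0.32 ± 0.33 (SE, edgeR adjusted p = 1.00) did not pass. Its guide FBXO42.4 went from 286, 4.32 and 119.6 CPM to 27.3, 3.34 and 39.0 CPM, at -2.57 ± 1.43 (SE). FBXO11, a receptor for BCL6 and CDT2, had 908, 627 and 583 CPM at 0 µM and 967, 604 and 711 CPM at 1500 µM, with a fold change of 0.11 ± 0.33 (SE) whose sign turned without replicate 1 at 1500 µM. FBXO31, which degrades cyclin D1 after DNA damage, had 5 of 10 guides higher. Its guide FBXO31.7 was higher, from 10.4, 13.0 and 16.7 CPM to 28.4, 25.8 and 35.7 CPM, and these 2 groups did not overlap. Its log2 fold change of 1.14 ± 0.93 (SE, edgeR adjusted p = 1.00) did not pass.

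The 8 genes first studied in muscle or neurons had a median of -0.15, with 1 above 0, where 35% of all genes were. This was FBXO7, a mitophagy gene of familial parkinsonism, at 0.14. With the block 3 lay above 0 and FBXO7 was at -0.034. FBXO30 and FBXO32 were lowest without the block, at -0.40 and -0.39 for their median guides, and with it FBXO30 was at -0.30 and FBXO32 at 0.15. Without the block FBXO25 and FBXO38 were the FBXO genes with at least 80% of their tested guides lower, as 2 of 10 guides were higher in each. For reference, 10.8% of all genes had that many guides lower, and FBXO25 and FBXO38 are 2 of 35. With the block they were FBXO10 and FBXO16, against 6.27% of all genes. No FBXO gene had as many guides higher without the block, against 3.4% of all genes. With the block FBXO39 did, against 5.55% of all genes.

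Of the other 14 genes, FBXO33, which has been linked to the cold-shock protein YB-1, had 1103, 922 and 828 CPM at 0 µM and 1227, 907 and 1004 CPM at 1500 µM. FBXO47, a gene of male meiosis, had 1173, 563 and 946 CPM at 0 µM and 1266, 657 and 1074 CPM at 1500 µM. FBXO47 was higher in 3 of 3 numbers, at 0.16 ± 0.39 (SE, edgeR adjusted p = 1.00), while its median guide was at -0.05. The fold change of its summed counts turned to -0.11 without replicate 2 at 0 µM and to -0.05 without replicate 1 at 1500 µM. FBXO47.2 had 17.1, 31.7 and 48.7 CPM at 0 µM and 17.2, 82.1 and 94.8 CPM at 1500 µM. FBXO48.3 was the only FBXO guide higher by more than 1 log2 unit in all 3 numbers, which 0.697% of all tested guides were. It had 1.22, 7.20 and 5.41 CPM at 0 µM and 7.90, 32.5 and 31.5 CPM at 1500 µM, which are 2, 15 and 11 counts against 22, 68 and 75. Its fold change of 2.34 ± 1.36 (SE, edgeR adjusted p = 1.00) did not pass.

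**Figure D3:**
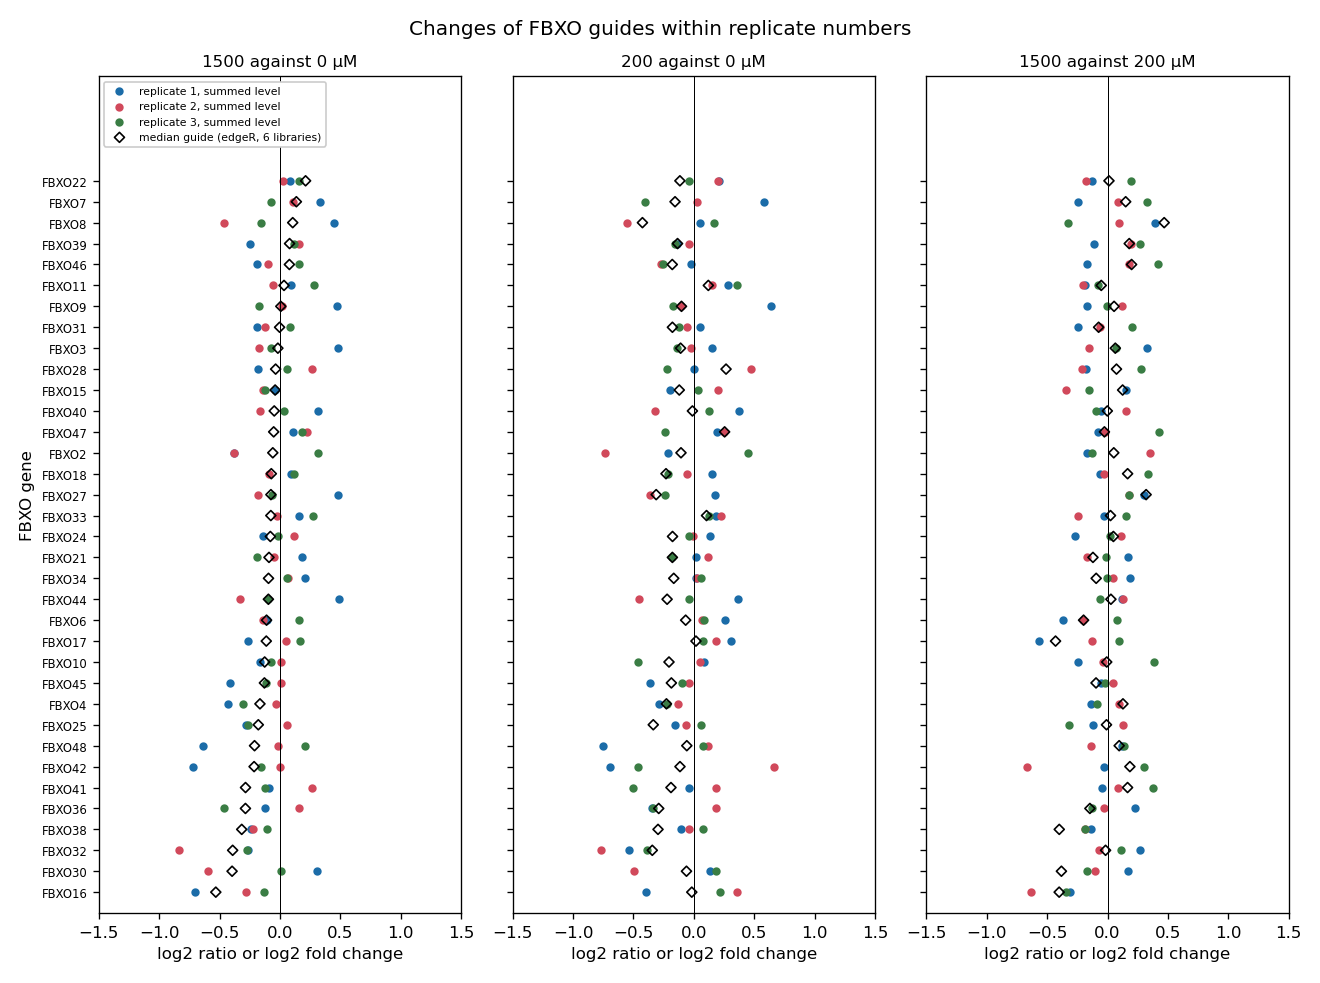
Change of each FBXO gene in the 3 comparisons (panels). Coloured points are the log2 ratio of the summed level within replicate 1, 2 or 3 and diamonds the edgeR log2 fold change of the gene's median guide, ordered by the first panel; most genes have points on either side of 0, and the diamonds of 1500 against 0 µM run from -0.53 for FBXO16 to 0.21 for FBXO22.

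Counting directions alone, the summed level was higher at 1500 than at 0 µM in all 3 numbers for 3 of 35 FBXO genes (FBXO22, FBXO34 and FBXO47), as for 13.9% of all genes. It was lower in all 3 for 6 (FBXO4, FBXO15, FBXO16, FBXO32, FBXO38 and FBXO42), as for 10.6% of all genes. This split depended on scaling. When the guide table's TMM factors were used for the sums in place of those of the summed table, the median log2 ratio of all genes moved from -0.0075 to -0.13 at 1500 against 0 µM and from 0.0075 to -0.12 at 200 against 0 µM. At 1500 against 0 µM no FBXO gene was then higher and 10 were lower in all 3 numbers, against 6.36% and 30.1% of all genes. The FBXO median moved with all genes, from -0.019 to -0.15. No FBXO gene had summed levels that did not overlap between 1500 and 0 µM, where 1.43% of all genes were higher and 0.895% lower without overlap. Among the single guides, FBXO31.7 and FBXO48.3 were higher without overlap, or 0.583% of the FBXO guides against 1.42% of all guides, and 6 were lower, or 1.75% against 1.27%.

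The comparison of 200 with 0 µM, which shares its 0 µM libraries with the first, asked the same of the low dose. No FBXO guide or gene passed, and 0 of all 10337 guides and 1117 genes did. The unadjusted p of edgeR was under 0.05 for 0 of 343 guides and 0 of 35 genes, against 0.135% of all guides and 0 of 1117 genes. The median over the FBXO genes was -0.16, between -0.43 for FBXO8 and 0.27 for FBXO28, and -0.09 over all genes. Above 0 lay 5 of 35, or 14.3% against 32.6% of all genes, and above the median of all genes 10 of 35. Without replicate 3 at 200 µM the FBXO median turned to 0.029, in a fit without the block that kept replicate 3 at 0 µM. With the replicate block it was -0.09, against -0.08 for all genes. With the block 10 of 35 lay above 0, or 28.6% against 35.6% of all genes, and 5 of 35 turned sign, or 14.3% against 21.3%.

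With the block, edgeR's unadjusted p was under 0.05 for 10 FBXO guides, all lower. They were 2.92% of the FBXO guides, where 2.23% of all guides were so called in either direction and 1.67% as lower. The single gene so called was FBXO32, lower, or 2.86% of the FBXO genes, against 5.37% of all genes in either direction and 3.22% as lower. FBXO32 had 728, 3379 and 1085 CPM at 0 µM and 502, 1989 and 831 CPM at 200 µM, lower in each number. Its log2 fold change was -0.66 ± 0.68 (SE, edgeR adjusted p = 0.998), -0.58 ± 0.14 with the block (adjusted p = 0.81) and -0.18 ± 0.44 without FBXO32.4. Without replicate 2 at 0 µM it was 0.29, in a fit without the block that kept replicate 2 at 200 µM. FBXO32.9, besides FBXO32.4, was among the 10 guides, at -0.69 ± 0.27 with the block.

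The glycoprotein-binding genes had a median of -0.11, with FBXO27 lowest at -0.31, where 9 of 10 guides were lower, and FBXO17 at 0.02. FBXO17 had 463, 306 and 407 CPM at 0 µM and 574, 348 and 429.5 CPM at 200 µM, higher in each number and overlapping between the groups. Its fold change of 0.18 ± 0.35 (SE, edgeR adjusted p = 0.998) turned to -0.011 without replicate 1 at 200 µM. FBXO44.3 had 25, 20 and 38 counts at 0 µM and 9, 0 and 0 counts at 200 µM. It was, with FBXO44.5 and FBXO10.10, a guide lower by more than 1 log2 unit in every number, as 0.638% of all tested guides were, and no FBXO guide was higher by as much, as 0.474% were. FBXO2.2 went the other way, from 31.1, 47.1 and 21.2 CPM to 82.1, 67.3 and 56.1 CPM without overlap, at 1.03 ± 0.73 (SE, edgeR adjusted p = 1). FBXO2.4 had 71.5, 63.2 and 47.2 CPM at 200 µM, lower mainly in replicate 2.

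Among the 10 genes listed for DNA damage, p53 or cell cycle substrates, FBXO11 alone lay above 0 without the block, and the median was -0.18. With the block the median was -0.19 and FBXO22 was above 0 as well, at 0.16. FBXO11 had 908, 627 and 583 CPM at 0 µM and 1102, 697 and 749.9 CPM at 200 µM, higher in each number, with a fold change of 0.24 ± 0.34 (SE, edgeR adjusted p = 0.998). FBXO46, which has been reported to act on FBXO31, had 1024, 943 and 845 CPM at 0 µM and 1009, 781 and 706 CPM at 200 µM, at -0.19 ± 0.29 (SE). FBXO10.10 targets FBXO10, a receptor for the apoptosis inhibitor BCL2. It had 104, 15.4 and 22.6 CPM at 0 µM and 36.2, 5.70 and 6.35 CPM at 200 µM, at -1.58 ± 1.24 (SE, edgeR adjusted p = 1). FBXO31.7 was higher in each number here as well, with 16.3, 42.0 and 41.6 CPM at 200 µM.

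All 8 genes first studied in muscle or neurons lay below 0 without the block, with a median of -0.17, where 67.4% of all genes lay below 0. With the block 7 of the 8 did, as FBXO2 turned to 0.59. Without it 3 of them, FBXO7, FBXO25 and FBXO41, were among the 6 FBXO genes with at least 80% of their tested guides lower. The other 3 were FBXO24, FBXO27 and FBXO34, and 13.1% of all genes met that mark. With the block the mark was met by FBXO7, FBXO8 and FBXO27, and by 10.4% of all genes. No FBXO gene had as many guides higher in either fit, against 2.24% of all genes without the block and 2.95% with it. FBXO30.7 had 141, 305 and 302 CPM at 0 µM and 88.3, 103 and 152 CPM at 200 µM, lower in each number, at -1.13 ± 0.69 (SE), and at -1.10 ± 0.33 with the block (edgeR adjusted p = 1.00 in each fit).

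Among the other 14 genes, FBXO48 had 2705, 1129 and 978 CPM at 0 µM and 1603, 1227 and 1032 CPM at 200 µM. Only replicate 1 was lower, and without it at 0 µM the log2 fold change of -0.34 ± 0.45 (SE) became 0.28. FBXO33 was higher in each number, with 1253, 1077 and 904 CPM at 200 µM, at 0.16 ± 0.29 (SE). FBXO16.1 was lower through replicate 1, which held 516 CPM at 0 µM and 79.1 CPM at 200 µM, while replicate 2 held 121 and 112 CPM. FBXO3.10 targets FBXO3, which acts on the F-box protein FBXL2, and had 12.8, 9.60 and 53.6 CPM at 0 µM and 44.6, 17.6 and 106 CPM at 200 µM. It was higher in each number with overlapping groups, at 1.17 ± 1.08 (SE, edgeR adjusted p = 1). In all, the summed level was higher in 3 of 3 numbers for 5 FBXO genes and lower for 5, against 16.8% and 12.6% of all genes. With the guide table's factors these were 1 and 14, against 6.18% and 30.9%. No FBXO gene's summed levels separated between 200 and 0 µM, where 1.43% and 0.537% of all genes were higher and lower without overlap. Single guides without overlap were 3 higher, or 0.875% against 1.29% of all guides, and 5 lower, or 1.46% against 1.12%. The higher were FBXO2.2, FBXO17.2 and FBXO40.4 and the lower FBXO2.4, FBXO38.1, FBXO41.2, FBXO44.3 and FBXO44.5, of which FBXO17.2, FBXO40.4, FBXO38.1 and FBXO41.2 are named here because their values were seen.

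The comparison of 1500 with 200 µM, which shares all its libraries with the comparisons above, asked what the higher dose added. edgeR called no FBXO guide or gene, and 0 of all 10337 guides and 1117 genes. Its unadjusted p was under 0.05 for 0 of 343 guides and 0 of 35 genes, against 0.203% of all guides and 0.0895% of all genes. The median over the FBXO genes was 0.024, between -0.43 for FBXO17 and 0.47 for FBXO8, and 0.011 over all genes. Above 0 lay 19 of 35, or 54.3% against 52.8% of all genes. With the block 12 of 35 turned sign, or 34.3% against 25.2% of all genes. The FBXO median was -0.067 without replicate 3 at 200 µM and -0.019 without replicate 2 at 1500 µM. With the block, edgeR's unadjusted p was under 0.05 for 10 FBXO guides, or 2.92% against 1.95% of all guides, and for 1 gene, FBXO16, or 2.86% against 6.62% of all genes. Of the 10 guides, 3 were higher, or 0.875% against 0.929% of all guides, and 7 lower, or 2.04% against 1.03%.

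One alternative gave calls in this comparison. DESeq2 with the replicate number as a block called 4 FBXO guides at an adjusted p of 0.05, all lower at 1500 µM, or 1.17% of them against 0.416% of all guides, and 1 FBXO gene, FBXO16, or 2.86% against 2.15% of all genes. In edgeR with the same block none of the 5 passed, and 0 of all guides and genes did. DESeq2 set no adjusted p for features of low counts, FBXO17 and FBXO42 among the FBXO genes. It thus adjusted over fewer features than edgeR did. The shares count such features as not called, and FBXO guides were more abundant than the typical guide. The FBXO share and that of all guides are therefore not strictly alike. DESeq2 with the block called no FBXO guide or gene in the other 2 comparisons, in each of which it called 0.058% of all guides. Of all genes it called 0.269% at 1500 against 0 µM and 0.0895% at 200 against 0 µM.

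FBXO4.10 had the lowest p of these guides. FBXO4 is a cyclin D1 receptor, and this guide had 152, 74.6 and 135 CPM at 200 µM and 66.8, 39.1 and 63.8 CPM at 1500 µM, with no overlap. DESeq2 with the block gave -1.09 ± 0.26 (SE, adjusted p = 0.0185), and edgeR with the block -1.06 ± 0.35 (SE, adjusted p = 1.00). At 0 µM it had 52.4, 61.0 and 124 CPM, so that its level at 1500 µM was above that without drug in replicate 1 and below it in replicates 2 and 3. FBXO4 as a gene was at -0.06 ± 0.42 (SE) on summed counts, and 6 of its 10 guides were higher.

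FBXO2.7 had 208, 195 and 187 CPM at 200 µM and 135, 128 and 107 CPM at 1500 µM, and 352, 187 and 162 CPM at 0 µM. All levels at 1500 µM lay below all those at the other doses. DESeq2 with the block gave -0.70 ± 0.19 (SE, adjusted p = 0.0489), while 6 of the 10 guides of FBXO2 were higher. FBXO11.1 had 330.3, 108 and 144 CPM at 200 µM and 217, 47.7 and 92.3 CPM at 1500 µM, at -0.82 ± 0.23 (SE, DESeq2 adjusted p = 0.0498). The groups of FBXO11.1 overlapped, though each number was lower.

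FBXO38.4 had 73.3, 230.5 and 185 CPM at 200 µM and 35.2, 153 and 107 CPM at 1500 µM, at -0.83 ± 0.24 (SE, DESeq2 adjusted p = 0.0499). FBXO38 encodes a receptor known for degrading PD-1 in T cells. Its summed level was 1354, 1128 and 826 CPM at 200 µM and 1233, 993 and 727 CPM at 1500 µM, lower in each number with overlapping groups, at -0.15 ± 0.31 (SE, edgeR adjusted p = 0.999). Rank aggregation, which asks whether a gene's guides crowd among the most decreased of the table and does not measure the spread between libraries, gave FBXO38 the lowest adjusted p of the FBXO genes in this comparison, 0.47, and 0.376 with the block. In that ranking 4 of its 10 guides were higher, and FBXO38.2 was higher with an unadjusted p of 0.0448 in edgeR with the block.

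FBXO16 had 1014, 608 and 626 CPM at 200 µM and 818, 391 and 493 CPM at 1500 µM. It was lower in each number with overlapping groups, and 8 of its 10 guides were lower, a mark that 5.82% of all genes met and FBXO16 did not meet with the block. DESeq2 with the block gave -0.44 ± 0.13 (SE, adjusted p = 0.0412), edgeR with the block -0.42 ± 0.14 (SE, adjusted p = 0.56) and edgeR without it -0.39 ± 0.37 (SE, adjusted p = 0.999).

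**Figure D4:**
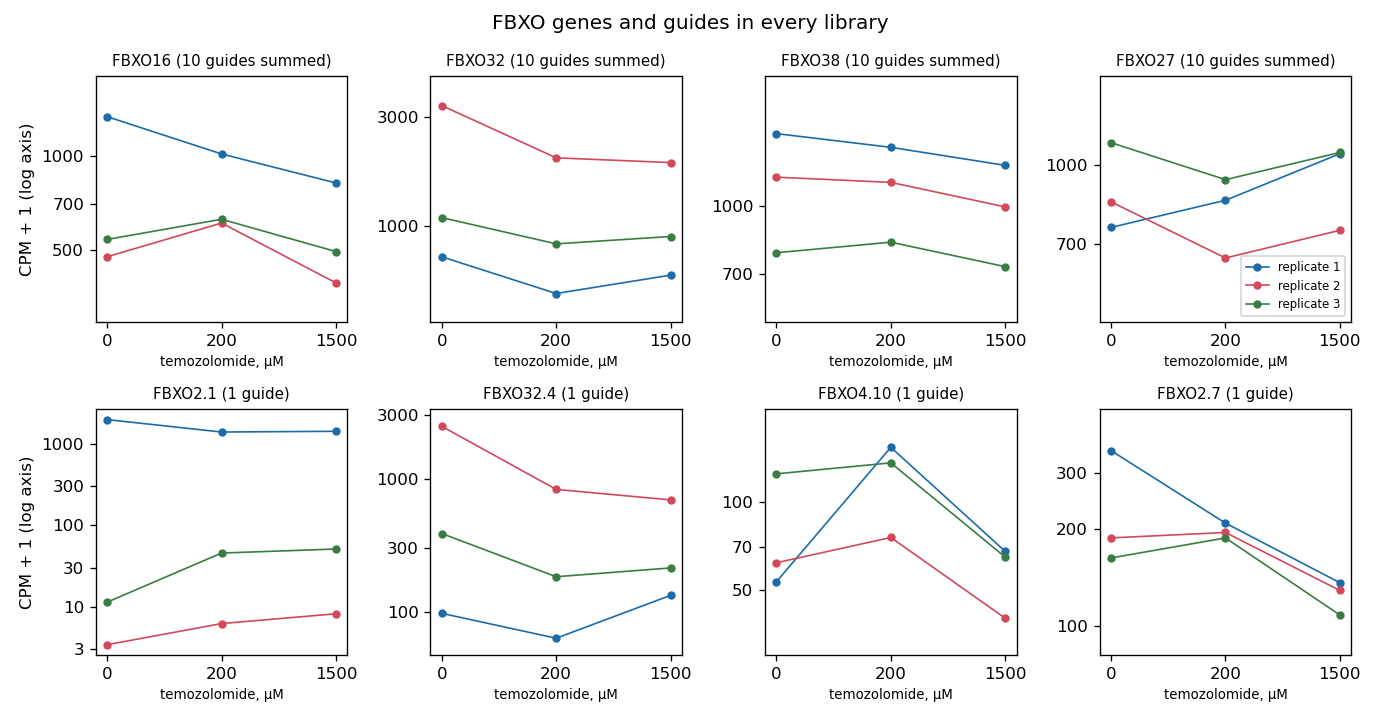
Level in CPM + 1 (vertical log axes, which differ between panels) of 4 FBXO genes, summed over 10 guides, and of 4 FBXO guides, in every library; doses are evenly spaced and lines join libraries of the same replicate number. Replicate numbers keep their order in FBXO32, FBXO38, FBXO2.1 and FBXO32.4 at every dose, and FBXO4.10 and FBXO2.7 have their lowest level of replicates 2 and 3 at 1500 µM.

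Of the FBXO genes that were higher in this comparison, FBXO27 had the lowest p on summed counts. It encodes a receptor for glycoproteins of damaged lysosomes. It had 851, 656 and 934 CPM at 200 µM and 1049.9, 744 and 1056 CPM at 1500 µM, higher in each number with overlapping groups. Its fold change was 0.23 ± 0.28 (SE, edgeR adjusted p = 0.999), and 9 of its 10 guides were higher, where 6.54% of all genes had at least 80% of their guides higher. With the block FBXO27 did not meet that mark, which FBXO3, FBXO32 and FBXO39 then did, with 8.86% of all genes. At 0 µM it had 753, 845 and 1104 CPM. The other glycoprotein-binding genes were scattered from -0.43 for FBXO17 upwards, with 3 of 5 above 0. FBXO17 had 574, 348 and 429.5 CPM at 200 µM and 385, 318 and 458 CPM at 1500 µM, so that replicate 3 ran against the others. FBXO6, which also targets the checkpoint kinase CHK1, had 976, 1177 and 991 CPM at 200 µM and 757, 1022 and 1045 CPM at 1500 µM, at -0.15 ± 0.26 (SE). Its guide FBXO6.7 had 59.6, 58.0 and 81.8 CPM at 200 µM and 21.5, 32.0 and 39.0 CPM at 1500 µM without overlap, at -1.11 ± 0.69 (SE, edgeR adjusted p = 1.00).

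Of the guides that were higher, FBXO44.3 and FBXO8.10 rested on few counts. FBXO44.3 had 9, 0 and 0 counts at 200 µM against 147, 11 and 25 at 1500 µM. FBXO8.10 had 0, 15 and 23 counts at 200 µM against 31, 65 and 47 at 1500 µM. FBXO8 carries a Sec7 domain that acts on ARF GTPases. These 2 guides were higher by more than 1 log2 unit in all 3 numbers, as were 0.658% of all tested guides, and no FBXO guide was lower by as much, as 0.426% were. FBXO41.2, against a neuronal F-box gene, had 11.9, 15.0 and 4.94 CPM at 200 µM and 39.5, 15.3 and 35.7 CPM at 1500 µM, with replicate 2 unmoved. FBXO39.8 had 26.1, 31.6 and 70.5 CPM at 200 µM and 50.2, 65.9 and 139 CPM at 1500 µM, or 59, 61 and 200 counts against 140, 138 and 331, about 1 log2 unit higher in each number, at 0.99 ± 0.76 (SE, edgeR adjusted p = 1.00).

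FBXO39 as a gene had 949.8, 841 and 1022 CPM at 200 µM and 879.9, 964 and 1234 CPM at 1500 µM, at 0.14 ± 0.26 (SE), and its sign turned without replicate 3 at 1500 µM. FBXO46 had 1009, 781 and 706 CPM at 200 µM and 899, 881 and 942 CPM at 1500 µM, at 0.13 ± 0.26 (SE), with replicate 1 against the others. FBXO47.10 had 87.9, 64.7 and 83.9 CPM at 200 µM and 42.3, 61.1 and 33.6 CPM at 1500 µM without overlap, at -0.80 ± 0.62 (SE, edgeR adjusted p = 1.00). The summed level was higher in 3 of 3 numbers for 1 FBXO gene, FBXO27, and lower for 3, FBXO11, FBXO16 and FBXO38, against 12.7% and 15.2% of all genes. No FBXO gene's summed levels separated, where 0.537% and 0.358% of all genes did in the 2 directions. Single guides without overlap were 5 higher, or 1.46% against 1.53% of all guides, and 8 lower, or 2.33% against 1.16%. The higher were FBXO8.10, FBXO27.4, FBXO30.7, FBXO41.2 and FBXO44.3, of which FBXO27.4 and FBXO30.7 were named after their values were seen.

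The machinery that all FBXO proteins share gave no call either. Of the 20 measured SCF core and neddylation genes, 0 passed edgeR in any comparison, where 0 of all 1117 genes did. At an unadjusted p of 0.05 it called 1, 0 and 0 of them at 1500 against 0, 200 against 0 and 1500 against 200 µM. The shares of all genes were 0.269%, 0 and 0.0895%. With the block it called 2, 1 and 2 of the 20, against 6.62%, 5.37% and 6.62% of all genes. They were DCUN1D1 and SKP2 at 1500 against 0 µM, SKP2 at 200 against 0 µM, and NEDD8 and CDC34 at 1500 against 200 µM. The 1 without the block was DCUN1D1, a NEDD8 ligase for cullins, with 5445, 1054 and 3614 CPM at 0 µM and 34745, 9562 and 7000.5 CPM at 1500 µM. Its log2 fold change was 2.34 ± 0.95 (SE, edgeR adjusted p = 1.00), and 2.29 ± 0.60 with the block (adjusted p = 0.31). Without its most abundant guide it was at -0.63, and 2 of its 7 tested guides were higher. SKP2, the F-box protein of the list, had 1008, 830.3 and 772 CPM at 0 µM and 512, 600.3 and 638 CPM at 1500 µM without overlap. Its log2 fold change was -0.58 ± 0.28 (SE, edgeR adjusted p = 1.00), and -0.57 ± 0.17 with the block (adjusted p = 0.46). Without the block 5 of its 9 tested guides were higher. RBX1 had 348, 260.0 and 94.4 CPM at 200 µM and 229, 189.8 and 93.4 CPM at 1500 µM, at -0.44 ± 0.58 (SE). Medians over the list were 0.027, -0.076 and 0.082 in the 3 comparisons.

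As a whole, FBXO guides took 3.68%, 3.58% and 3.40% of all counts in replicates 1, 2 and 3 at 0 µM. The shares were 3.92%, 3.49% and 3.13% in the 200 µM libraries, and 3.48%, 2.79% and 3.21% in those at 1500 µM. The difference of -0.39 percentage points between 1500 and 0 µM gave p = 0.2 in a two-sided exact permutation test (adjusted p = 0.72 over 9 such tests), where 3 against 3 libraries cannot go below 0.1. Within replicate numbers the share was lower in 3 of 3 (exact permutation p = 0.25 with the numbers as a block, the smallest that 3 pairs allow, adjusted p = 0.562). The low value of replicate 2 at 1500 µM went with 1 guide against another gene, UBE2A.7, which took 6.07%, 18.6% and 4.97% of all counts at 1500 µM. Counted without that guide, the FBXO share was 3.69%, 3.62% and 3.41% at 0 µM, while the 1500 µM libraries had 3.70%, 3.43% and 3.38%, and was lower in replicates 2 and 3 alone. Between 200 and 0 µM the share differed by -0.0414 points (exact permutation p = 0.9, adjusted p = 0.9), and by 0.0722 without replicate 3. The FBXO guides under 10 counts numbered 46, 47 and 34 at 0 µM and 33, 38 and 29 at 1500 µM (exact permutation p = 0.2, adjusted p = 0.72), fewer in 3 of 3 replicate numbers (exact permutation p = 0.25 within numbers, adjusted p = 0.562).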

How the data were processed

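The deposited table held the authors' raw count of each sgRNA in 9 libraries. Per the submitters' processing notes, cutadapt 1.18 and MAGeCK 0.5.8 were used and hg19 was named. How mismatches and guide filters were handled is not stated there. Members and gene lists were chosen with earlier results of these data known.

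Guides that reached 10 counts in 3 or more libraries were tested with edgeR 4.0.16 (quasi-likelihood, TMM, robust), on the 6 libraries of each pair of doses, without a block. Counts summed per gene were tested likewise, with TMM factors of the summed table. In edgeR, Benjamini-Hochberg adjustment ran over all 10337 guides or 1117 genes (threshold 0.05). In DESeq2 it left out features of low counts, by that program's own filter. An SE was derived by dividing the size of the log2 fold change by the root of its F statistic. Ratios within a replicate number used log2(CPM + 1). DESeq2 1.42.0, limma 3.58.1 and robust rank aggregation, R 4.3.3, were alternatives. The steps checked on simulated data were edgeR's test of single guides and the p-value of rank aggregation. Symbols were matched to RefSeq, GRCh38.p14.

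In all 9 pairs of libraries with the same number, deviations from the mean of the dose correlated at 0.73 to 0.81 over FBXO guides (0.67 to 0.78 over all guides). Each pair exceeded 0.1, so the replicate numbers, which the sample titles give, were treated as a pairing in the block fits and the ratios within numbers. The main edgeR tests left this pairing out, which widens their spread. For FBXO32 at 200 against 0 µM the SE was 0.68 without the block and 0.14 with it. No FBXO guide or gene passed edgeR with the block either. Over the whole table that fit called 0 of 10337 guides in each comparison. Of all genes it called 0.0895% at 1500 against 0 µM and 0 in the other comparisons.

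Named were, per comparison and direction, up to 3 genes and 3 guides of lowest p, guides past 1 log2 unit in every number, members past an alternative's threshold and SCF list genes of lowest p, besides the 3 highest and lowest genes and 5 most abundant guides.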

Additional observations from a re-analysis of the deposited data

How the results depend on the processing

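With the replicate number as a block, the median log2 fold change over the FBXO genes at 1500 against 0 µM was -0.023, and with the mean of a gene's guides in place of the median it was -0.11. Leaving out single libraries gave -0.13 to -0.066 at 1500 against 0 µM, -0.18 to 0.029 at 200 against 0 µM and -0.067 to 0.036 at 1500 against 200 µM. DESeq2 with the replicate block called 4 FBXO guides and 1 gene at 1500 against 200 µM, at -1.09 for FBXO4.10, -0.83 for FBXO38.4, -0.82 for FBXO11.1, -0.70 for FBXO2.7 and -0.44 for FBXO16. The replicate block changed no other call. No other alternative called an FBXO guide or gene, including DESeq2 without a block, other size factors, count minimums of 1 and 50, all 9 libraries in 1 fit, limma on median guide levels and rank aggregation.

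Fits that left out 1 library had no block, so its partner of the same number stayed in the other group. In them, log2 fold changes of summed counts changed sign for some named genes. At 1500 against 0 µM they ranged from -0.11 to 0.33 for FBXO11, -0.83 to 0.17 for FBXO16, -1.21 to 0.30 for FBXO32 and -0.11 to 0.41 for FBXO47. At 200 against 0 µM they ranged from -0.011 to 0.33 for FBXO17, -1.38 to 0.29 for FBXO32 and -0.60 to 0.28 for FBXO48, and at 1500 against 200 µM from -0.024 to 0.24 for FBXO39. The share of counts at 200 against 0 µM turned to 0.0722 percentage points without replicate 3. With the guide table's factors, an alternative chosen after seeing the data, FBXO genes higher and lower in all numbers were 0 and 10 at 1500 against 0 µM and 1 and 14 at 200 against 0 µM. The permutation of count shares within replicate numbers was likewise chosen after seeing the data. Causes of these shifts were not tested.

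Depth limits single guides, since 3 counts were at most 1.62 CPM without TMM scaling, and 3 libraries per dose limit every comparison.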
